A study of Mus musculus with 24 samples.

Results

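The proteasome is the protease that removes most short-lived and damaged proteins of the cytosol and the nucleus, and the genes described here encode its parts. They were chosen by the gene names in the scanner files, as all names of the families Psma to Psmg with a number, less the 3 inducible subunits Psmb8, Psmb9 and Psmb10, with the brightest probe standing for each gene. The rule found 40 genes of the 27597 gene names on the arrays, and 39 of them were among the 16241 genes tested. The exception was Psma8, a subunit of the proteasome of the testis, which was not well above background in any of the 24 samples (mean log2 intensity 6.13 to 6.31 by group). The assembly chaperones Psmg1, Psmg2 and Psmg3 are on the arrays under older names, so that the rule did not take them, and they are read out with the other pathway genes.

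All samples came from N1E-115, a mouse neuroblastoma line that serves as a model of nerve cells, hybridised to 12 Agilent 2-colour arrays. The TO line was transfected with a chimera that the labels give as N-terminal transcobalamin fused to oleosin, and its protein binds cobalamin (vitamin B12) strongly per the labels. Transcobalamin (TCN2) carries cobalamin in blood, and oleosin is a plant protein of oil bodies. The OT line was transfected with the C-terminal chimera, for which no binding of cobalamin was detected, and the WT line was not transfected. Each line was grown in differentiation medium (d, 2.5% fetal calf serum and 1.25% DMSO) or in proliferation medium (p, 10% fetal calf serum), both based on high-glucose DMEM, which gave the groups TO-d, OT-d, WT-d, TO-p, OT-p and WT-p with 4 samples each. The promoter that drives the fusions and whether a line is 1 clone are not given in the sources used here. Nothing says either that the 4 samples of a group came from separate cultures. A p-value reflects the spread between samples within groups, pooled over all groups and drawn toward that of all genes. This spread may be technical.

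In the 26S proteasome a 20S core does the cutting inside a barrel of alpha and beta rings, and a 19S particle at its end binds ubiquitin chains, unfolds the substrate and feeds it in. The base of the 19S particle holds a ring of ATPases and large scaffold subunits, its lid holds the enzyme that cuts ubiquitin off, and dedicated chaperones assemble the base. Cells can replace the 19S particle by other activators, or the catalytic subunits by inducible ones, and a shortage of proteasome activity is known to raise the subunit genes together through the transcription factor Nfe2l1. Nerve cells depend on the proteasome for the turnover of synaptic and misfolded proteins.

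Each level below is a normalised log2 intensity, so that a difference of 1 is a factor of 2, and levels of different probes are not compared. Between 54.3% and 65.9% of a sample's spots were well above background, raw signals had medians of 65 to 163.5, and the number of arrays limits the precision. Markers of the sympathoadrenal lineage, to which neuroblastoma belongs, were well above background in all 24 samples for 11 of 12 genes (the exception was Nefl), against 4 of 7 glial, 2 of 7 fibroblast or smooth muscle and 0 of 6 blood or endothelial genes. Of the blood or endothelial genes Cd14 was so in 21 samples, Cd68 and Pecam1 in 6 each, Kdr in 4, and Ptprc and Cdh5 in none. For each set of markers the intensities were summed and the log2 of the sum was taken, so that the brightest probes weigh most. The summed level of the glial markers was 10.29 to 10.62 in TO-d and 9.90 to 10.14 in TO-p. For OT this level was 10.61 to 10.83 in OT-d and 9.82 to 10.04 in OT-p. For WT this level was 11.27 to 11.35 in WT-d and 10.11 to 10.45 in WT-p. That of the fibroblast and smooth muscle markers ran the other way, with 12.36 to 12.58 in TO-d and 13.05 to 13.24 in TO-p, 12.32 to 12.58 in OT-d and 13.14 to 13.20 in OT-p, and 11.89 to 12.13 in WT-d and 12.98 to 13.09 in WT-p. The summed level of the sympathoadrenal markers was 15.18 to 15.32 in TO-d and 15.67 to 15.70 in TO-p, 15.97 to 16.14 in OT-d and 15.60 to 15.64 in OT-p, and 15.06 to 15.26 in WT-d and 15.49 to 15.64 in WT-p, so that it was lower in differentiation medium in TO and WT and higher in OT. All 3 sums moved with the medium, the last in a direction that differed between lines, and their part in the results below was not tested.

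A pair of spots stood apart from their replicates. The Psmc2 spot of 1 array, shared by OT-p replicate 3 (5.65) and WT-p replicate 1 (6.15), was not well above background in either dye, while the other 22 samples gave Psmc2 levels of 13.51 to 14.78. The Psme2 spot of OT-d replicate 1 read 13.06, where the other samples of that group read 15.68 to 15.77. Neither spot carried an outlier mark in that dye, so all 3 values stayed in the fit, in which no comparison of Psmc2 or Psme2 was called. Their values without these spots are given beside the results.

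WT cells lowered most proteasome genes in differentiation medium. Of the 39 genes, 31 were called lower in WT-d than in WT-p and 3 higher, where a call is a limma adjusted p under 0.05 over all genes tested. These are shares of 79.5% and 7.69%, against 30.8% and 35.8% of all genes tested. The median log2 difference was -0.40 for the 39 genes and 0.06 for all genes. The lid subunit Psmd13 read 9.14, 9.30, 9.66 and 9.54 in WT-d, against 10.76, 10.44, 11.09 and 10.76 in WT-p (log2 -1.33 ± 0.0961, adjusted p = 4.41e-11, where ± gives the SE of a difference). Psmd1, a large scaffold subunit of the 19S base, read 11.10, 11.34, 11.01 and 10.90 in WT-d and 12.78, 12.17, 12.57 and 12.26 in WT-p (log2 -1.29 ± 0.122, adjusted p = 9.23e-09). The ATPase Psmc3 read 11.43, 11.71, 11.72 and 11.72 in WT-d, against 13.06, 12.49, 13.10 and 12.74 in WT-p (log2 -1.17 ± 0.117, adjusted p = 9.5e-09). In each of the 3 genes every WT-d sample lay below every WT-p sample, and the fold change exceeded 2.

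The 19S particle and the 20S core both took part in the response of WT cells. Of 17 genes of the 19S particle, 14 were called lower in WT-d and 1 higher, with a median log2 difference of -0.40. In the ATPase ring, which unfolds substrates, 5 of 6 genes were called lower, with log2 differences of -1.17 for Psmc3, -1.03 for Psmc4, -0.98 for Psmc5, -0.64 for Psmc1 and -0.23 for Psmc6. The sixth ATPase, Psmc2, gave log2 0.52 with all values (adjusted p = 0.745) and -0.65 ± 0.0938 without the dim spots (adjusted p = 3.68e-06). In the lid, 6 of 8 genes were called lower, among them Psmd14, the enzyme that cuts ubiquitin chains off the substrate (log2 -0.97 ± 0.0714, adjusted p = 5.68e-11). All 3 assembly chaperones of the 19S base were called lower, with log2 -0.71 for Psmd9, -0.45 for Psmd10 and -0.38 for Psmd5. In the 20S core 12 of 14 genes were called lower, with a median of -0.40 and Psmb2 (-0.78) and Psma4 (-0.71) at the low end.

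The 3 catalytic subunits of the constitutive 20S core followed to different degrees. Psmb5, which carries the chymotrypsin-like site, read 13.14, 13.27, 13.28 and 13.58 in WT-d, against 13.97, 13.72, 13.91 and 14.15 in WT-p (log2 -0.66 ± 0.0929, adjusted p = 1.68e-06). Psmb7, which carries the trypsin-like site, read 11.67, 11.55, 11.68 and 11.78 in WT-d and 12.23, 12.11, 12.28 and 12.24 in WT-p (log2 -0.54 ± 0.0646, adjusted p = 1.48e-07). The groups did not overlap in either gene. Psmb6, which carries the caspase-like site, read 15.18, 14.83, 15.21 and 15.28 in WT-d, against 15.42, 15.15, 15.36 and 15.32 in WT-p (log2 -0.22 ± 0.0767, adjusted p = 0.0138). Its groups overlapped, and without WT-d replicate 2 or WT-p replicate 1 the call was lost (adjusted p = 0.112 and 0.0601), as it was with Agilent's processed signals (0.226), the local backgrounds as deposited (0.165) and without the b samples (0.435), which are the 6 samples, 1 a group, whose description has a number with the letter b.

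Of the 3 genes called higher in WT-d, the activator Psme3 stood out in size. Psme3 encodes PA28 gamma, which caps the 20S core in the nucleus. It read 13.13, 13.00, 12.82 and 13.00 in WT-d, against 11.57, 12.07, 11.39 and 11.77 in WT-p (log2 1.27 ± 0.147, adjusted p = 9.28e-08), a 2.41-fold rise with no overlap. The lid subunit Psmd8 was higher by log2 0.24 (adjusted p = 0.00632) and the beta subunit Psmb1 by log2 0.14 (adjusted p = 0.0355). Psmb1 lost its call when any of 6 samples was left out (adjusted p = 0.0522 to 0.155), and with loess normalization alone both differences turned (log2 -0.01 for Psmd8 and -0.03 for Psmb1). Psmb1 was also lost under 4 other settings (adjusted p = 0.0514 to 0.252). Psme4, the nuclear activator PA200, was called lower (log2 -0.47), as was the inhibitor Psmf1 (log2 -0.57). Psme1 and Psme2, the PA28 activator of antigen processing, were not called (log2 0.09 and 0.26), although Psme2 was called higher without the dim spot (log2 0.34, adjusted p = 0.000133). The other Psme2 probe, well above background in all 24 samples, was higher in differentiation medium in WT (log2 0.305), OT (0.534) and TO (0.408).

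**Figure D1:**
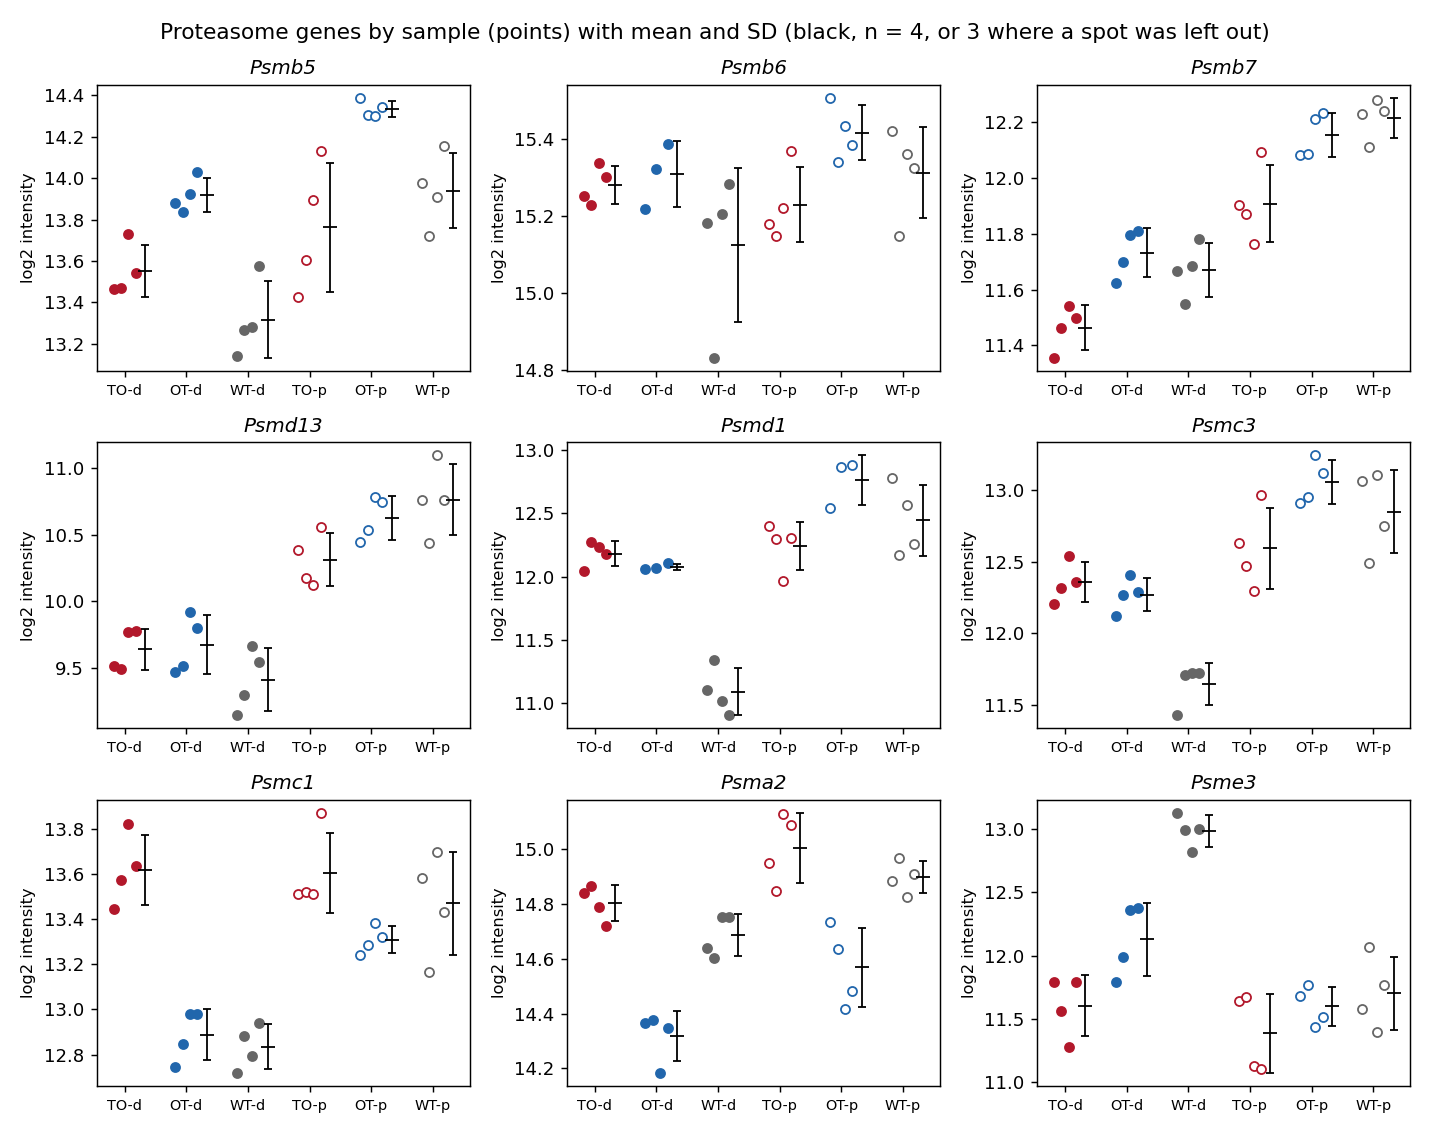
Normalised log2 intensity of 9 proteasome genes in every sample (points, filled for differentiation medium and open for proliferation medium), by group, with the mean and SD of the group in black (n = 4, or 3 where a spot was left out). Psmd13, Psmd1 and Psmc3 are lowest in WT-d, while Psme3 is highest there (12.82 to 13.13), and Psmc1 in TO-d (13.44 to 13.82) lies above OT-d (12.75 to 12.98).

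The OT line gave a like picture in direction. Of 39 genes, 28 were called lower in OT-d than in OT-p and 4 higher, shares of 71.8% and 10.3%, against 31.1% and 36.4% of all genes, and the median log2 difference was -0.38 (0.04 over all genes). Psmd13 read 9.47, 9.52, 9.92 and 9.80 in OT-d, against 10.44, 10.54, 10.79 and 10.74 in OT-p (log2 -0.94 ± 0.0859, adjusted p = 1.32e-09). The ATPase Psmc5 read 12.38, 12.35, 12.30 and 12.14 in OT-d and 13.14, 13.19, 13.00 and 13.07 in OT-p (log2 -0.88 ± 0.092, adjusted p = 1.34e-08). The base chaperone Psmd9 read 9.13, 9.32, 9.35 and 9.35 in OT-d, against 10.22, 9.96, 10.32 and 10.16 in OT-p (log2 -0.83 ± 0.0733, adjusted p = 7.1e-10). All 3 genes fell with no overlap between the groups.

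In OT cells 15 of 17 genes of the 19S particle and 10 of 14 genes of the 20S core were called lower. Psmc2 gave log2 0.95 with all values (adjusted p = 0.5) and -0.51 ± 0.0831 without the dim spots (adjusted p = 1.32e-05). Psmb5 read 13.88, 13.84, 13.93 and 14.03 in OT-d, against 14.39, 14.30, 14.30 and 14.34 in OT-p (log2 -0.45 ± 0.083, adjusted p = 5.05e-05). Psmb7 read 11.62, 11.70, 11.79 and 11.81 in OT-d and 12.08, 12.09, 12.21 and 12.23 in OT-p (log2 -0.40 ± 0.0577, adjusted p = 2.16e-06). Neither gene overlapped between the media. Psmb6 read 15.22, 15.32 and 15.39 (1 spot left out) in OT-d, against 15.51, 15.34, 15.43 and 15.38 in OT-p, and was not called (log2 -0.07 ± 0.0732, adjusted p = 0.377). The genes called higher were Psme3, with 11.79, 11.99, 12.36 and 12.38 in OT-d and 11.68, 11.77, 11.43 and 11.51 in OT-p (log2 0.64 ± 0.132, adjusted p = 0.000158), Psmd8 (log2 0.45 ± 0.065, adjusted p = 1.63e-06), Psme1 (log2 0.31 ± 0.0739, adjusted p = 0.000654) and Psmb1 (log2 0.25, adjusted p = 0.000973). Without the dim spot Psme2 was called higher too (log2 0.53, adjusted p = 1.78e-07).

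In the TO line far fewer genes were called. Of 39 genes, 10 were called lower in TO-d than in TO-p and 3 higher, shares of 25.6% and 7.69%, against 25.8% and 26.5% of all genes, so that the share called lower was near that of all genes. The median log2 difference was -0.14, against 0.00 over all genes. Psmd13 read 9.52, 9.49, 9.77 and 9.78 in TO-d, against 10.39, 10.18, 10.12 and 10.56 in TO-p (log2 -0.64 ± 0.0904, adjusted p = 2.38e-06). Psmd14 read 13.39, 13.43, 13.49 and 13.47 in TO-d and 13.99, 14.00, 13.96 and 14.22 in TO-p (log2 -0.58 ± 0.0671, adjusted p = 1.4e-07). Psmb7 read 11.36, 11.46, 11.54 and 11.50 in TO-d, against 11.90, 11.87, 11.76 and 12.10 in TO-p (log2 -0.46 ± 0.0608, adjusted p = 9.93e-07). These 3 genes fell in all 3 lines.

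The ATPases mostly stayed short of a call in TO, with a median log2 difference of -0.16, against -0.61 in OT and -0.81 in WT. Psmc3 read 12.21, 12.32, 12.54 and 12.36 in TO-d, against 12.63, 12.47, 12.30 and 12.97 in TO-p (log2 -0.22 ± 0.11, adjusted p = 0.108), and the groups overlapped. Only Psmc6 of the 6 ATPases was called lower (log2 -0.34, adjusted p = 0.0004). Psmd1 read 12.05, 12.27, 12.23 and 12.18 in TO-d and 12.40, 12.30, 11.96 and 12.30 in TO-p (log2 -0.05 ± 0.115, adjusted p = 0.753). Psmb5 read 13.46, 13.47, 13.73 and 13.54 in TO-d, against 13.42, 13.60, 13.89 and 14.13 in TO-p (log2 -0.24 ± 0.0873, adjusted p = 0.0268). It was called lower with an overlap of the groups, and leaving out TO-p replicate 4 ended the call (log2 -0.17, adjusted p = 0.102), as did leaving out TO-p replicate 2, TO-d replicate 1 or TO-d replicate 4 (adjusted p = 0.054 to 0.158) and 5 other settings (adjusted p = 0.0549 to 0.215). Psmb6 read 15.25, 15.23, 15.34 and 15.30 in TO-d and 15.18, 15.15, 15.22 and 15.37 in TO-p and was not called (log2 0.06 ± 0.0711, adjusted p = 0.553). The genes called higher were Psme4 (log2 0.22 ± 0.0697, adjusted p = 0.00966), Psmb4, a structural beta subunit (log2 0.20 ± 0.0656, adjusted p = 0.0115), and Psmb1 (log2 0.15 ± 0.0554, adjusted p = 0.03), and with Agilent's processed signals 0 were higher and 11 lower. Leaving out TO-d replicate 1 ended all 3 calls (adjusted p = 0.0588, 0.0519 and 0.0934), as did Agilent's processed signals, the local backgrounds as deposited, the fit with no dye term and the omission of the b samples. Without the dim spot of Psme2, that gene was called higher as well (log2 0.44, adjusted p = 9.49e-06).

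Across the lines, 26 genes were called lower by differentiation medium in both OT and WT, and 9 of these were also called lower in TO. A further 5 genes were called lower in WT and not in OT, and 2 in OT and not in WT. Of all genes tested, 30.8% were called lower in WT, 31.1% in OT and 25.8% in TO. The share of all genes called lower in several lines at once was not computed, so the joint counts stand without a background. No gene called in the 3 lines had its calls in opposite directions, except Psmb4, which was higher in TO-d (log2 0.20) and lower in WT-d (log2 -0.22), and Psme4, with log2 0.22 in TO-d and -0.47 in WT-d. Only Psmc2 and Psme2 were called in no line with all values of their brightest probes kept.

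**Figure D2:**
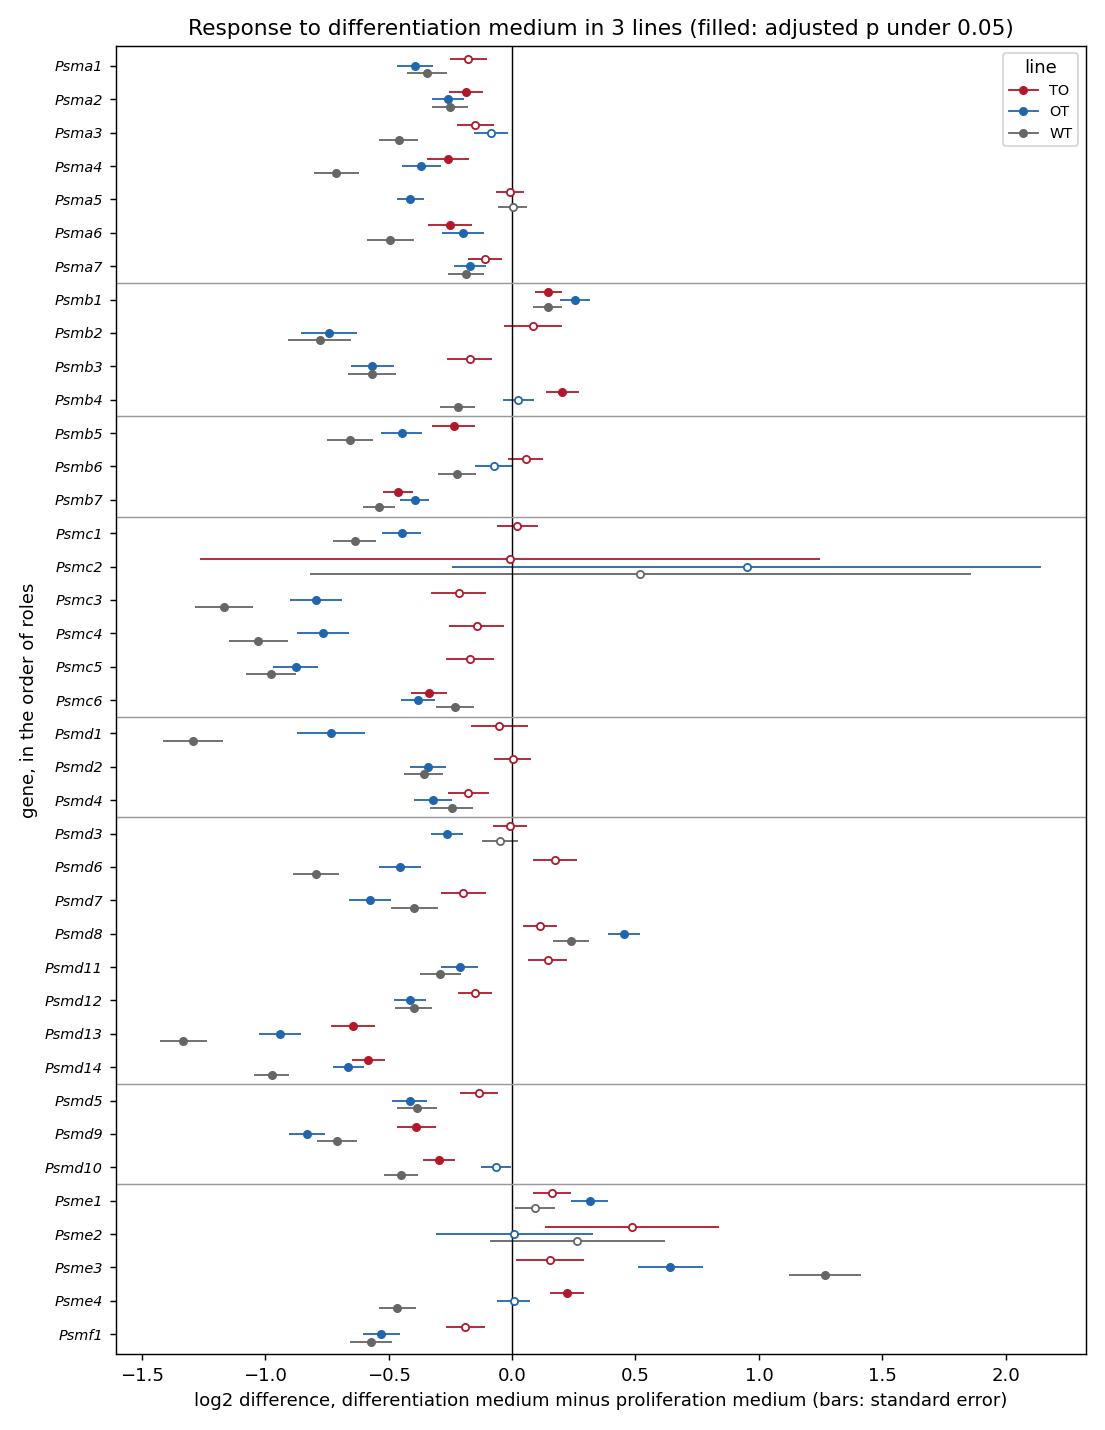
Fitted log2 difference of differentiation minus proliferation medium for the 39 tested genes in TO (red), OT (blue) and WT (grey), with standard errors as bars and filled points for calls. Most WT and OT points lie left of 0 and most TO points lie nearer to it, Psme3 lies far right in WT (1.27), and the wide bars of Psmc2 and Psme2 come with their dim spots.

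The difference between the responses was tested itself, as the response of 1 line less that of another. Against OT, the medium response of TO was called higher (less negative or more positive) in 17 of 39 genes and lower in 1, shares of 43.6% and 2.56%, against 17.4% and 22.8% of all genes. The median was 0.22, with -0.03 over all genes. Psmb2, a structural beta subunit, read 10.29, 10.21, 10.23 and 10.26 in TO-d and 10.23, 10.14, 10.00 and 10.49 in TO-p, against 10.19, 10.21, 9.68 and 10.26 in OT-d and 10.86, 10.92, 10.80 and 10.90 in OT-p. Its TO groups overlapped and its OT groups did not, and the responses differed (log2 0.83 ± 0.172, adjusted p = 0.000547). Psmc5 differed by log2 0.70 ± 0.14, adjusted p = 0.000342. Psmd8 was the gene called lower (log2 -0.34 ± 0.0988, adjusted p = 0.00821), having risen in OT-d and not been called in TO-d, and it lost its call with loess alone (adjusted p = 0.188) and without the b samples (adjusted p = 0.0984). The 17 calls became 8 without the b samples, 9 with no dye term and 11 with the local backgrounds as deposited. None of the 3 catalytic subunits was called (log2 0.21 for Psmb5, 0.13 for Psmb6 and -0.07 for Psmb7).

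Against WT, the medium response of TO was called higher in 20 of 39 genes and lower in 1, shares of 51.3% and 2.56%, against 17.7% and 18.9% of all genes, with medians of 0.28 and -0.04. Psmd1 differed by log2 1.24 ± 0.171, adjusted p = 2.13e-05. Psmd6, a lid subunit, read 12.88, 12.88, 12.93 and 12.93 in TO-d and 12.62, 12.69, 12.71 and 13.01 in TO-p, against 12.11, 12.18, 12.42 and 12.30 in WT-d and 13.10, 12.77, 13.11 and 13.04 in WT-p (log2 0.97 ± 0.131, adjusted p = 1.21e-05). The WT groups of Psmd6 did not overlap and its TO groups did. Psme3 was the gene called lower (log2 -1.11 ± 0.205, adjusted p = 0.000265), having risen in WT-d and not been called in TO-d (log2 0.15, adjusted p = 0.386). Psmb5 (log2 0.42 ± 0.129, adjusted p = 0.0141) and Psmb6 (log2 0.28 ± 0.105, adjusted p = 0.0413) were called and Psmb7 was not (log2 0.08, adjusted p = 0.517). Leaving out TO-p replicate 1 ended the call of Psmb5 (adjusted p = 0.0546), and Psmb6 lost its call when any of 10 samples was left out (adjusted p = 0.051 to 0.118). With the local backgrounds as deposited, no dye term or no b samples neither was called (adjusted p = 0.0528 to 0.0782 for Psmb5 and 0.11 to 0.585 for Psmb6), and Psmb6 was not with processed signals (0.651) or no filter (0.0612).

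The particles are given here by their counts, beside 17.4% of all genes called higher against OT and 17.7% against WT. In the 19S particle 11 of 17 genes were called higher against OT and 10 of 17 against WT, with medians of 0.34 and 0.39, while in the 20S core 3 of 14 and 7 of 14 were, with medians of 0.12 and 0.26. The share of the core against OT is thus near that of all genes. Whether these shares differ was not tested. Without the dim spots Psmc2 joined the calls, with log2 0.50 against OT (adjusted p = 0.00255) and 0.63 against WT (adjusted p = 0.000665). Both comparisons use the same TO samples, so their calls are not independent of each other.

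The medium response of OT against that of WT gave fewer calls, 9 higher and 2 lower, shares of 23.1% and 5.13%, against 20.4% and 14.5% of all genes. The median was 0.11, with 0.00 over all genes. Psmd1 (log2 0.56 ± 0.173, adjusted p = 0.0162) and Psme4 (log2 0.47 ± 0.0948, adjusted p = 0.000495) led the genes called higher. Psme3 (log2 -0.63 ± 0.188, adjusted p = 0.0126) and Psma5 (log2 -0.41 ± 0.0771, adjusted p = 0.000235) were the genes called lower. Loess alone ended the calls of Psme3 and Psma5 (adjusted p = 0.123 and 0.0737), and the local backgrounds as deposited that of Psme4 (adjusted p = 0.0805). The alpha subunit Psma5 read 14.94, 14.99, 15.03 and 15.04 in OT-d and 15.43, 15.31, 15.44 and 15.40 in OT-p, against 15.26, 15.39, 15.37 and 15.35 in WT-d and 15.38, 15.23, 15.42 and 15.31 in WT-p. Its OT groups did not overlap, and its WT groups did. None of the catalytic subunits was called (log2 0.21 for Psmb5, 0.15 for Psmb6 and 0.14 for Psmb7).

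**Figure D3:**
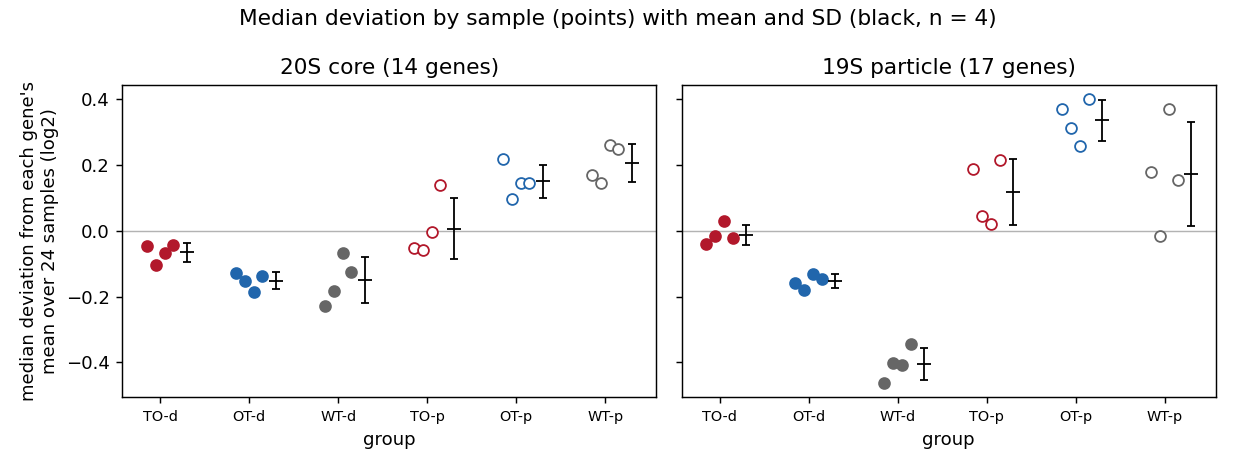
Median over the genes of the 20S core (14) and of the 19S particle (17) of their deviation from each gene's own mean over the 24 samples, in log2, for every sample (points) with the mean and SD of 4 samples in black. In the 19S particle the WT-d samples lie between -0.46 and -0.34, all below the OT-d samples (-0.18 to -0.13), and the TO-d samples (-0.04 to 0.03) lie above those.

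As a description of the whole set in single samples, the median deviation of the 17 genes of the 19S particle from their own means was -0.04 to 0.03 in TO-d, -0.18 to -0.13 in OT-d and -0.46 to -0.34 in WT-d. In proliferation medium it was 0.02 to 0.22 in TO-p, 0.26 to 0.40 in OT-p and -0.02 to 0.37 in WT-p. The differentiation groups were thus apart from each other in every sample, while WT-p overlapped with both other proliferation groups. For the 14 genes of the 20S core it was -0.11 to -0.04 in TO-d, -0.19 to -0.13 in OT-d, -0.23 to -0.07 in WT-d, -0.06 to 0.14 in TO-p, 0.10 to 0.22 in OT-p and 0.15 to 0.26 in WT-p. There the WT-d samples overlapped with both other differentiation groups.

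In proliferation medium TO cells had lower levels of many proteasome genes than OT cells. Of 39 genes, 17 were called lower in TO-p and 4 higher, shares of 43.6% and 10.3%, against 26.3% and 29.9% of all genes, with medians of -0.13 and 0.01. Psmd6 read 12.62, 12.69, 12.71 and 13.01 in TO-p, against 13.64, 13.56, 13.39 and 13.51 in OT-p (log2 -0.79 ± 0.088, adjusted p = 8.65e-08). Psmb2 read 10.23, 10.14, 10.00 and 10.49 in TO-p and 10.86, 10.92, 10.80 and 10.90 in OT-p (log2 -0.64 ± 0.118, adjusted p = 7.11e-05). Psmd5, a chaperone of the 19S base, read 12.13, 12.02, 11.75 and 12.04 in TO-p, against 12.65, 12.67, 12.66 and 12.55 in OT-p (log2 -0.64 ± 0.0757, adjusted p = 2.07e-07). None of these 3 overlapped between the lines. Psmb5 had 13.42, 13.60, 13.89 and 14.13 in TO-p and 14.39, 14.30, 14.30 and 14.34 in OT-p (log2 -0.55 ± 0.0869, adjusted p = 1.18e-05), also with no overlap. Psmb7 was called lower (log2 -0.23 ± 0.0604, adjusted p = 0.00259), though not with loess alone (adjusted p = 0.0855), and Psmb6 was not (log2 -0.16 ± 0.0706, adjusted p = 0.058).

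In TO-p the genes called higher, relative to OT-p, were Psma2, Psme1, Psmc1 and Psma3. The alpha subunit Psma2 read 14.95, 14.85, 15.13 and 15.09 in TO-p, against 14.73, 14.64, 14.42 and 14.48 in OT-p (log2 0.46 ± 0.0684, adjusted p = 5.61e-06). Psme1 read 14.09, 14.32, 14.43 and 14.26 in TO-p and 14.01, 13.86, 13.68 and 13.75 in OT-p (log2 0.45 ± 0.0774, adjusted p = 3.17e-05). The ATPase Psmc1 differed by log2 0.28 ± 0.0818, adjusted p = 0.00515, and Psma3 by log2 0.23 (adjusted p = 0.0114). Psma2, Psme1, Psmc1 and Psma3 did not overlap between the lines. Psmc1 lost its call with loess alone (adjusted p = 0.0655) and without the b samples (adjusted p = 0.0769), and under either setting 2 genes were called higher. Psmc2 gave log2 0.99 with all values (adjusted p = 0.535), and -0.50 ± 0.0882 without the dim spots (adjusted p = 5.65e-05), which would place it with the other ATPases called lower, Psmc3, Psmc4 and Psmc5 (log2 -0.48, -0.51 and -0.38).

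In differentiation medium the balance between TO and OT was even. Of 39 genes, 7 were called higher in TO-d and 7 lower, 17.9% each, against 19% and 20.9% of all genes, which is near the background, and the medians were 0.05 and -0.02. With loess normalization alone the split was 7 higher and 1 lower. Psmc1 read 13.44, 13.57, 13.82 and 13.63 in TO-d, against 12.75, 12.85, 12.98 and 12.98 in OT-d (log2 0.75 ± 0.0875, adjusted p = 3.95e-07). Psma2 read 14.84, 14.87, 14.79 and 14.72 in TO-d and 14.37, 14.38, 14.18 and 14.35 in OT-d (log2 0.53 ± 0.0731, adjusted p = 4.32e-06). The structural beta subunit Psmb3 read 15.29, 15.28, 15.34 and 15.24 in TO-d, against 15.02, 15.02, 15.03 and 14.90 in OT-d (log2 0.33 ± 0.097, adjusted p = 0.00821). The groups did not overlap in any of the 3. Psmb3 lost its call with Agilent's processed signals (adjusted p = 0.125) and without the b samples (adjusted p = 0.0705), where 2 genes in all were called higher.

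The lower genes were led by Psme3, with 11.79, 11.56, 11.28 and 11.79 in TO-d and 11.79, 11.99, 12.36 and 12.38 in OT-d (log2 -0.56 ± 0.147, adjusted p = 0.00395), whose groups touched at 11.79. Psmd5 (log2 -0.36 ± 0.0809, adjusted p = 0.00106), Psmb5 (log2 -0.34 ± 0.0929, adjusted p = 0.00584) and Psmb7 (log2 -0.29 ± 0.0646, adjusted p = 0.000846) came next in size and did not overlap, but all 3 lost their calls with loess alone (adjusted p = 0.187, 0.167 and 0.24), and Psmb5 without the b samples too (adjusted p = 0.0533). Psmb6 was not called (log2 -0.03 ± 0.081, adjusted p = 0.811). Leaving out OT-d replicate 4 took the lower calls to 4.

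Against the untransfected cells in proliferation medium, TO-p had 12 genes called lower and 1 higher, shares of 30.8% and 2.56%, against 16% and 19.1% of all genes, with medians of -0.10 and 0.00. Psmd9 read 9.56, 9.34, 9.40 and 9.71 in TO-p, against 10.25, 10.01, 10.18 and 10.02 in WT-p (log2 -0.57 ± 0.0733, adjusted p = 2.92e-06). Psmb2 had 10.82, 10.80, 10.77 and 10.65 in WT-p, all above its TO-p samples given before (log2 -0.56 ± 0.113, adjusted p = 0.000524). Psmd13 differed by log2 -0.44 ± 0.0859, adjusted p = 0.000374, with an overlap. Psme1 was the gene called higher, with 13.77, 13.95, 13.72 and 14.16 in WT-p (log2 0.34 ± 0.0739, adjusted p = 0.000906), and its groups overlapped. Psmb7 was lower with no overlap (log2 -0.29 ± 0.0577, adjusted p = 0.000371), while Psmb5 (log2 -0.21, adjusted p = 0.05) and Psmb6 (log2 -0.09, adjusted p = 0.369) were not called. The count of lower genes ran from 6, without WT-p replicate 3, to 16.

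In differentiation medium TO cells had more proteasome genes above WT cells than below them. In TO-d 15 genes were called higher than in WT-d and 6 lower, shares of 38.5% and 15.4%, against 22.9% and 23.6% of all genes, with medians of 0.21 and -0.03. Psmd1 was 2.06-fold higher (log2 1.04 ± 0.13, adjusted p = 2.13e-06), its TO-d samples (12.05 to 12.27) lying above its WT-d samples (10.90 to 11.34). Psmc5 read 12.62, 12.56, 12.47 and 12.51 in TO-d, against 11.57, 12.13, 11.69 and 11.62 in WT-d (log2 0.80 ± 0.11, adjusted p = 4.35e-06). Psme4 read 15.30, 15.08, 15.30 and 15.51 in TO-d and 14.41, 14.35, 14.85 and 14.70 in WT-d (log2 0.77 ± 0.0789, adjusted p = 9.12e-08). In each of the 3 the groups were apart, and 4 of 6 ATPases were called higher, Psmc1 (0.76), Psmc3 (0.70), Psmc4 (0.69) and Psmc5, with Psmc6 called lower (-0.21). Psmc2 joined them without the dim spots, which lie in other groups and act through the shared spread (log2 0.46, adjusted p = 0.000495, against an adjusted p = 0.793 with all values).

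Relative to WT-d, Psme3 in TO-d was lower by a factor of 2.51 (log2 -1.33 ± 0.157, adjusted p = 6.34e-07), with TO-d samples of 11.28 to 11.79 and WT-d samples of 12.82 to 13.13. The alpha subunit Psma1 (log2 -0.25 ± 0.0862, adjusted p = 0.0194), Psmd9 (log2 -0.25 ± 0.0874, adjusted p = 0.025) and Psmb7 (log2 -0.22 ± 0.0688, adjusted p = 0.0136) were lower by smaller amounts, with no overlap. Leaving out WT-d replicate 4 ended the calls of Psmd9 and Psmb7 (adjusted p = 0.0944 and 0.0599) and took the lower calls to 3 (with loess normalization alone the split was 22 higher and 1 lower), and Psmd9 was also lost without TO-d replicate 4 (adjusted p = 0.109) and Psmb7 without TO-d replicate 1 (adjusted p = 0.0522). With loess alone none of the 3 was called (adjusted p = 0.547 for Psma1, 0.911 for Psmd9 and 0.911 for Psmb7). Psma1 was not called with slide as a block (adjusted p = 0.054), nor Psmd9 with its second brightest probe (adjusted p = 0.395) or without the b samples (adjusted p = 0.133). Psmb5 (log2 0.21, adjusted p = 0.0905) and Psmb6 (log2 0.20, adjusted p = 0.0551) were not called.

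OT cells differed from WT cells in proliferation medium in 10 genes called higher and 6 lower, shares of 25.6% and 15.4%, against 20.7% and 24% of all genes, with medians of 0.04 and -0.02. The share called higher lay near the background, and with loess normalization alone 6 were higher and 8 lower. Psmd6 read 13.64, 13.56, 13.39 and 13.51 in OT-p, against 13.10, 12.77, 13.11 and 13.04 in WT-p (log2 0.49 ± 0.0794, adjusted p = 2.87e-05). Psmd5 (log2 0.43 ± 0.0683, adjusted p = 2.41e-05) and Psmd1 (log2 0.37 ± 0.11, adjusted p = 0.00895) followed, and Psmd1 lost its call without OT-p replicate 4 or WT-p replicate 2 (adjusted p = 0.149 and 0.11). The genes called lower were 5 alpha subunits and Psmb1. Psma3 read 13.49, 13.39, 13.33 and 13.38 in OT-p, against 13.78, 13.94, 13.84 and 13.81 in WT-p (log2 -0.43 ± 0.0659, adjusted p = 1.48e-05). Psma2 had 14.73, 14.64, 14.42 and 14.48 in OT-p and 14.88, 14.97, 14.83 and 14.91 in WT-p (log2 -0.37 ± 0.0617, adjusted p = 3.85e-05). Both were apart between the lines, unlike Psma6 (log2 -0.23 ± 0.0799, adjusted p = 0.0212), whose call was lost without any of 5 samples (adjusted p = 0.0531 to 0.148) and under 3 other settings, with log2 -0.05 without the b samples (adjusted p = 0.77). Psmb5 was higher with no overlap (log2 0.33 ± 0.0784, adjusted p = 0.00138), and Psmb6 (log2 0.08) and Psmb7 (log2 -0.07) were not called. Leaving out 1 sample moved the higher calls to 5 (without OT-p replicate 4 or WT-p replicate 2) and the lower calls to 3 (without OT-p replicate 2 or 4).

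In differentiation medium OT-d had 15 genes called higher than in WT-d and 5 lower, shares of 38.5% and 12.8%, against 26.6% and 25.1% of all genes, with medians of 0.08 and -0.02. Psmd1 (log2 0.93 ± 0.124, adjusted p = 2.83e-06) and Psmd6 (log2 0.83 ± 0.0885, adjusted p = 7.44e-08) led, followed by Psme4, with 15.20, 14.96, 15.26 and 15.20 in OT-d and 14.41, 14.35, 14.85 and 14.70 in WT-d (log2 0.61 ± 0.0697, adjusted p = 1.86e-07). Psmb5 was higher as well (log2 0.54 ± 0.0873, adjusted p = 1.97e-05), and all 4 were apart between the lines. Psmb6 was called (log2 0.23 ± 0.0836, adjusted p = 0.0292) but not without WT-d replicate 2 (adjusted p = 0.182), OT-d replicate 2 (0.058) or OT-d replicate 4 (0.107), nor under 5 other settings (adjusted p = 0.0607 to 0.814), and Psmb7 was not called (log2 0.08, adjusted p = 0.288). Psme3 was lower in OT-d (log2 -0.77 ± 0.139, adjusted p = 7.8e-05), as were Psma2 (log2 -0.38 ± 0.0687, adjusted p = 8.25e-05) and Psma5 (log2 -0.35 ± 0.0567, adjusted p = 1.93e-05). The lower calls numbered 3 without OT-d replicate 3.

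**Figure D4:**
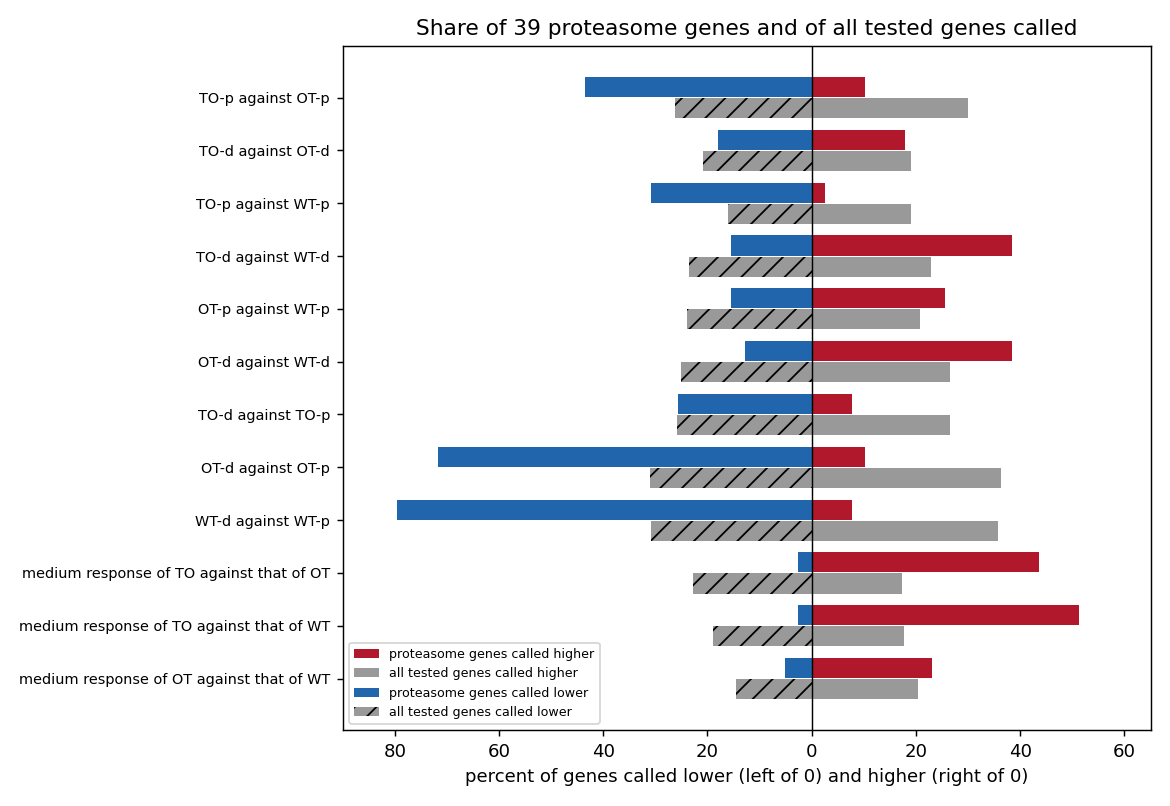
Percent of the 39 proteasome genes (coloured bars) and of all 16241 tested genes (grey bars) called higher, right of 0, and lower, left of 0, in the 12 comparisons. The widest gap is the share called lower in WT-d against WT-p, 79.5% of the proteasome genes and 30.8% of all genes.

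**Figure D5:**
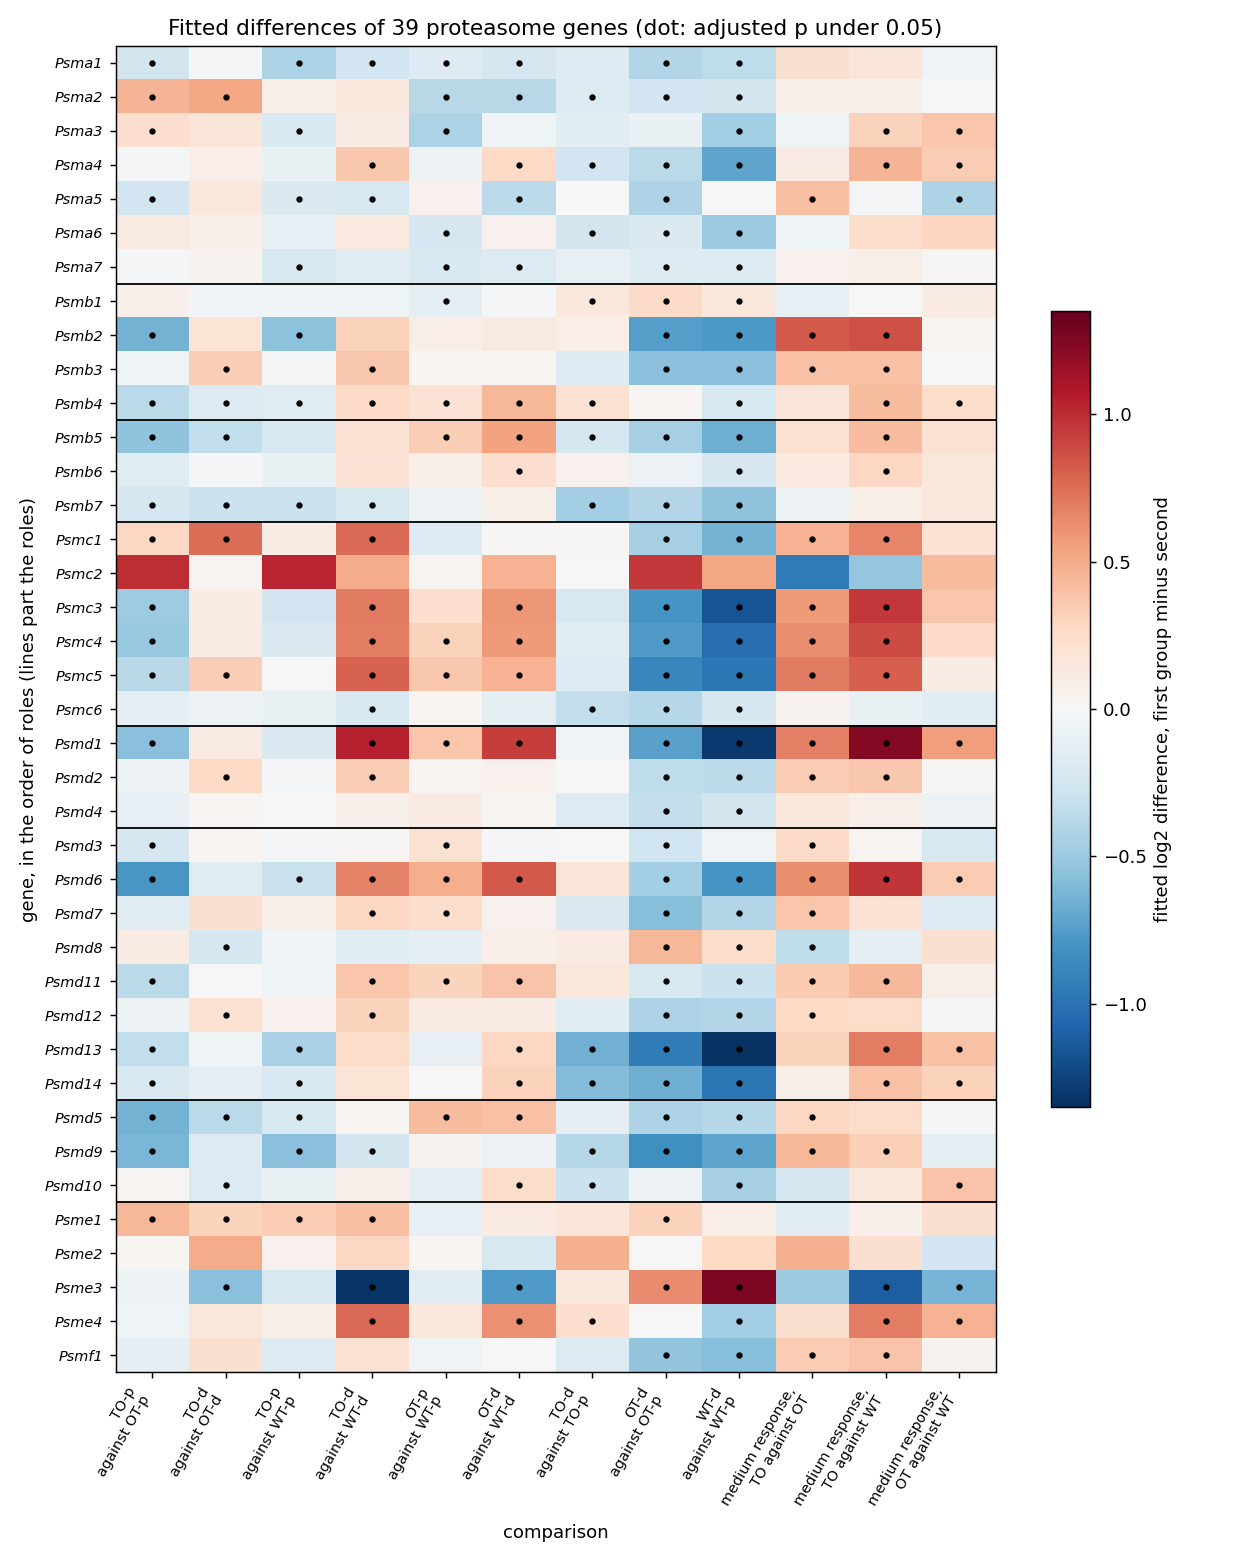
Fitted log2 differences of the 39 tested genes (rows, in the order of their roles) in the 12 comparisons (columns), red for higher and blue for lower in the group named first, with a dot for an adjusted p under 0.05. The columns OT-d against OT-p and WT-d against WT-p are mostly blue with dots, while Psme3 is red there, and the deep colours of Psmc2 carry no dot.

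Most of the genes also moved together across single samples, as a description over 24 samples that share arrays, groups and medium. Each gene was set against the mean of the other 38, all scaled to their own SD, and the median Pearson r was 0.66, with 27 of 39 genes over 0.5. The highest were the lid subunits Psmd13 (0.94) and Psmd14 (0.93) and the ATPases Psmc3 (0.94) and Psmc4 (0.92). Over the 6 group means the same genes gave 0.955 to 0.981, so differences between groups enter these values. Other sets of genes were not measured in this way, so the count over 0.5 stands without a background. Below 0 were Psmd8 (-0.81), Psme3 (-0.75), Psmb1 (-0.70) and Psme1 (-0.43), and also Psmc2 (-0.22) and Psme2 (-0.14), whose values include the dim spots. Psmd8 and Psmb1 are subunits of the lid and the core like their neighbours in the complex, yet their levels ran against most of the others. Both have only 1 probe on the arrays, as do Psme3, Psmd13, Psmd1, Psmc3, Psmb2 and the catalytic subunits, so no second probe bears on them. Where a called gene had further probes that were well above background in all samples, these had the same sign as the brightest in every comparison. This held for 13 of 13 genes in WT-d against WT-p and 12 of 12 in OT-d against OT-p, and the other called genes had no such probe. Sizes could differ, as for Psmd9 in TO-d against TO-p, with log2 -0.39 for its brightest probe and -0.03 for the other. For Psmf1 the brightest probe gave log2 -0.57 in WT and -0.53 in OT. A further Psmf1 probe, well above background in all samples, gave -0.12 and -0.11. Where a gene was not called the signs could differ, as for these Psmf1 probes in TO-d against TO-p (log2 -0.19 and 0.55).

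The 3 inducible catalytic subunits, which replace the constitutive ones in the immunoproteasome, went separate ways. Psmb8, the counterpart of Psmb5, was higher in differentiation medium in all lines (log2 0.53 in TO, 1.07 in OT and 1.06 in WT). Psmb10, the counterpart of Psmb7, was lower in OT-d (log2 -1.33) and WT-d (-0.88), and it was not called in TO (-0.07, adjusted p = 0.632). Psmb9, the counterpart of Psmb6, was called lower in TO-d alone (log2 -0.76), and its response in TO differed from that in OT (adjusted p = 0.0449) and in WT (adjusted p = 0.00913). Between lines Psmb8 averaged 13.09 ± 0.0548 in TO-p and 11.82 ± 0.0402 in OT-p (SD, n = 4 each, log2 1.30). Psmb9 averaged 11.07 ± 0.243 in TO-p and 9.71 ± 0.0673 in OT-p (log2 1.46, adjusted p = 1.62e-08). Psmb10 was higher in TO-d, at 14.14 ± 0.0604, than in OT-d, at 13.30 ± 0.135 (log2 0.92), while TO-p was below OT-p (log2 -0.34).

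Nfe2l1, the factor known to raise proteasome genes when the proteasome is short, ran opposite to the balance of calls in several comparisons, though not in all. It averaged 14.32 ± 0.231 in TO-p, 13.02 ± 0.209 in OT-p and 13.70 ± 0.257 in WT-p (SD, n = 4 each). TO-p was thus above OT-p by log2 1.30 (adjusted p = 1.51e-08), where 17 of the 39 genes were called lower and 4 higher. In differentiation medium it was higher in OT (log2 0.69) and WT (log2 0.43), where most subunits fell, and it was not called in TO (log2 0.14, adjusted p = 0.374). The direction was shared between TO-d and WT-d, where Nfe2l1 averaged 14.47 ± 0.0493 and 14.09 ± 0.220 (SD, n = 4 each). There 15 of the 39 genes were called higher in TO-d and 6 lower. Nfe2l2, the factor of the antioxidant response, was higher in differentiation medium in TO, OT and WT (log2 1.02, 1.44 and 0.91), and TO-p exceeded OT-p (log2 0.73). These are levels of mRNA, and the activity of either factor was not measured.

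The chaperones that assemble the 20S core were lower in differentiation medium in OT and WT, as most subunits were. All 3 on the arrays, Psmg1, Psmg2 and Psmg3, were called lower in OT-d (log2 -1.01, -0.36 and -0.65) and in WT-d (log2 -0.72, -0.48 and -0.58). In TO-d only Psmg3 was (log2 -0.26), and the response of TO differed from that of OT in all 3. Of all genes, 31.1% were called lower in OT-d, 30.8% in WT-d and 25.8% in TO-d. The response of TO was called higher than that of OT in 17.4% of all genes. Pomp, the maturation factor of the core, was lower in OT-d (log2 -0.54) and WT-d (log2 -0.50), not called in TO (log2 0.02, adjusted p = 0.895), and TO-p was below OT-p (log2 -0.51).

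Of the 20 tested genes of a list of control, assembly and associated proteins, which holds Nfe2l1, Nfe2l2 and Pomp too, 6 were called lower and 5 higher in TO-d, 12 lower and 5 higher in OT-d, and 9 lower and 5 higher in WT-d. Of all genes 25.8% were lower and 26.5% higher in TO-d, 31.1% and 36.4% in OT-d, and 30.8% and 35.8% in WT-d, so that the TO counts are near the background. The largest changes in OT were those of Ubqln1, a shuttle for ubiquitylated proteins (log2 -1.66), Uchl5, a deubiquitinase of the 19S particle (-1.57), and Rad23b, another shuttle (-1.45). In WT Rad23b (-1.11) and Ubqln1 (-0.998) were lower, and Ddi2, the protease that activates the Nfe2l1 protein, was higher (0.92). In TO Ddi2 was higher by log2 1.38, and Uchl5 (-0.79) and Ubqln1 (-0.78) were lower. Between TO-p and OT-p 16 of the 20 genes were lower and 3 higher, beside 26.3% and 29.9% of all genes, with log2 -0.95 for Zfand2a and -0.77 for Ubqln1.

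Of 11 genes of the p97 segregase, which extracts ubiquitylated proteins from complexes, and its cofactors, 2 were higher and 4 lower in TO-d, 4 and 5 in OT-d, and 3 and 5 in WT-d, to be read beside the shares of all genes given above. Vcp, the segregase itself, was lower in OT-d (log2 -0.14) and WT-d (-0.41), was not called in TO-d (-0.11, adjusted p = 0.162), and OT-p exceeded WT-p (log2 0.70). In differentiation medium Vcp averaged 14.07 ± 0.0641 in OT-d, 13.56 ± 0.0894 in TO-d and 13.06 ± 0.092 in WT-d (SD, n = 4 each).

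Promoters of these genes were read from RefSeq (build GRCm38.p6), as 250 bases before to 50 bases after the start of the gene. An entry was found for 33 of the 40 genes. Shown are Psmd13 and Psmd1, the 2 genes that fell most in WT-d, the catalytic subunit Psmb5, and Psme3, which rose where the others fell. Each is written 5′ to 3′ on the strand of the gene, and capitals mark matches to TGACNNNGC, the core of the antioxidant response element that Nfe2l1 and Nfe2l2 are known to bind, and to CGGAAG, a core of ETS sites, on either strand.
Psmd13 (chr7:140882144-140882443, plus strand): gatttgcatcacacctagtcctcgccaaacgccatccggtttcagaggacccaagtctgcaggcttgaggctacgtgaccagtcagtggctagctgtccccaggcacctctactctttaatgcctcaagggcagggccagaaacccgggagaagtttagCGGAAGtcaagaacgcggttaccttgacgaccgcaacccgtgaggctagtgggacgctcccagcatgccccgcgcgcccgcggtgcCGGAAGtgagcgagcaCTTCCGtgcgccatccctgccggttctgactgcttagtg
Psmd1 (chr1:86064369-86064668, plus strand): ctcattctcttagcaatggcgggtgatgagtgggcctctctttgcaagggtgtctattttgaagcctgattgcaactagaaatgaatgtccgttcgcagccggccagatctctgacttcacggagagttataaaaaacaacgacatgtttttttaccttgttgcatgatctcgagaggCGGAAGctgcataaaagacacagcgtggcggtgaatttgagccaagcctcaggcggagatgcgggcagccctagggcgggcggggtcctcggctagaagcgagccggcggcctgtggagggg
Psmb5 (chr14:54617946-54618245, minus strand): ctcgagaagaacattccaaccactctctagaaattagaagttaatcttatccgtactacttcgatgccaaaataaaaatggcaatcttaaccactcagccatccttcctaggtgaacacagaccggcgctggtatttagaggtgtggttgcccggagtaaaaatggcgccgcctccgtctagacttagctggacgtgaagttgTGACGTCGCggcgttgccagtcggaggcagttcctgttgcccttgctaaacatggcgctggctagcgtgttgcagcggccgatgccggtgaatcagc
Psme3 (chr11:101315963-101316262, plus strand): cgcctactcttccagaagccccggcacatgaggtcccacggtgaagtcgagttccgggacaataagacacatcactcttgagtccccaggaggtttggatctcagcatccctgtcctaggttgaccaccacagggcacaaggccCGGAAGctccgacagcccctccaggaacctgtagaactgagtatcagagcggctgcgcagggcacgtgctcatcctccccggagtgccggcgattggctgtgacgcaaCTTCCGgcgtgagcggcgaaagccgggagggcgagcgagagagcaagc

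TGACNNNGC was found on either strand in 6 of the 33 genes (18.2%), Psmb5, Psmb6, Psmc6, Psmd9, Psmd12 and Psme4, and in 14% of the 27025 genes with a promoter in the table. CGGAAG was found in 19 of the 33 (57.6%) and in 18.8% of all genes. This motif was added after these same sequences had been read, so its higher share is no test. All genes here are those with a promoter entry, and the share among the genes tested on the arrays was not computed. GGGCGG, the GC box, was in 21 (63.6%) and in 38.2% of all, and CCAAT in 12 (36.4%) and in 41.1% of all. In 1 promoter of these genes TGACNNNGC overlapped another of the 4 motifs. The 6 genes with TGACNNNGC had a median log2 difference of -0.43 in WT-d against WT-p, and the 27 tested genes without it -0.38. In OT-d against OT-p the medians were -0.40 and -0.34, and in TO-d against TO-p -0.19 and -0.13. A match is a description of the letters, not a site shown to be bound, and no match speaks only of this window.

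The probe positions in the scanner files are on mm8. The Psmd13 probe lies on chromosome 7 from 140737882 to 140738349, Psmd1 on chromosome 1 from 87957644 to 87957703, Psmc3 on chromosome 2 from 90857528 to 90857587, Psmb5 on chromosome 14 from 53568529 to 53568588, and Psme3 on chromosome 11 from 101138961 to 101139021. Within single slides, each of which was scanned at 1 time, the genes called lower or higher kept their sign in 34 of 34 genes on slide 1 and 33 of 34 on slide 3 in WT-d against WT-p, and in 32 of 32 on slides 2 and 3 in OT-d against OT-p. In TO-d against TO-p they did in 12, 12 and 13 of 13 on the 3 slides. The weakest was OT-p against WT-p on slide 1, with 13 of 16, while TO-p against WT-p on slide 2 had 12 of 13 and the response of TO against OT on slide 2 had 17 of 18. On the other slides that held both groups, every called gene of these and the remaining comparisons kept its sign. The slides hold the same samples that gave the calls, so a kept sign is a description and not an independent check.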

How the data were processed

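RNA of 24 samples (6 groups of 4) was labelled with Cy3 or Cy5 and hybridised in pairs to 12 arrays on 3 slides, each group with 2 samples in each dye. Per the file headers, the scanner files hold intensity values per spot, written by Agilent's Feature Extraction (version 10.5.1.1), and the mean signal and local background median of each dye were used as deposited. The authors' deposited series table, also intensity, was an alternative; its columns ranked probes like their own sample's dye (Spearman 0.997 or more). Gene names came from the files and, where an accession, symbol or synonym matched, from RefSeq.

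Of 45018 spots, 1639 control spots were removed. A total of 195 local backgrounds over 3 times the array's median were set to that median, a step decided after the data were seen. Background was corrected with normexp (offset 50), arrays were normalized by loess and Aquantile, outlier spots (0.294% of values) were left out, and no spot was saturated. A gene was tested if its brightest probe was well above background in all 4 samples of a group, 16241 of 27597. A limma 3.58.1 fit (R 4.3.3, statmod 1.5.0) held group and dye, with the array as a random effect (correlation 0.453, 17 residual degrees of freedom), and p-values were adjusted by Benjamini-Hochberg over all genes tested. For this reason a fitted log2 difference can depart from the difference of the group means. The fit was tested on simulated data.

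The genes and lists were chosen with earlier results of these data known. Any of the 40 genes may be named; values of every sample were given for Psmb5, Psmb6 and Psmb7 and for up to 3 genes with the largest called changes in each direction (2 for differences of medium response), and up to 4 genes of each other list were named by size, with others named after their values were seen. Another gene list was tested and is not reported here. Replicate numbers lie within 1 dye. Over 60 pairs of samples with the same number in different groups, the median correlation of deviations was -0.02, with 15 pairs over 0.1. Over 170 other pairs from different groups and arrays it was -0.025, with 41 over 0.1. Dye means had been removed, which lowers correlations within 1 dye, so these values cannot exclude a pairing. Samples whose descriptions share a number may be 1 RNA labelled in both dyes, which the labels do not say, so they were kept as separate samples. Their deviations had a median correlation of -0.07, higher than other pairs of a group in opposite dyes (-0.407) or in 1 dye (-0.486), where values below 0 arise from the group mean. As an alternative the samples were fitted with the one marked b left out of each group.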

Additional observations from a re-analysis of the deposited data

Results flagged for a closer look

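In 14 of the 229 groups of 4 samples with values for a gene, 1 sample lay far from the other 3 by Dixon's test, where chance flags about 5% of groups. The most distant were the dim spots, Psmc2 in OT-p replicate 3 (5.65, others 14.50 to 14.78) and in WT-p replicate 1 (6.15, others 14.22 to 14.65), and Psme2 in OT-d replicate 1 (13.06, others 15.68 to 15.77). TO-p replicate 4 was the high sample for Psmc1 (13.87, others 13.51 to 13.52), Psmd14 (14.22, others 13.96 to 14.00) and Psmf1 (10.17, others 9.72 to 9.78). OT-d replicate 3 was low for Psma2 (14.18, others 14.35 to 14.38) and Psmb2 (9.68, others 10.19 to 10.26). WT-d replicate 1 was low for Psmc3 (11.43, others 11.71 to 11.72) and high for Psmd8 (12.27, others 12.05 to 12.07). The rest were Psma4 in TO-d replicate 2 (12.54, others 12.37 to 12.40), Psmb3 in OT-d replicate 4 (14.90, others 15.02 to 15.03), Psmd5 in OT-p replicate 4 (12.55, others 12.65 to 12.67) and Psmd9 in OT-d replicate 1 (9.13, others 9.32 to 9.35).

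The medium response differed between lines by the test of the difference itself in named genes. Between TO and OT these were Psmb2 (log2 0.83), Psmc5 (0.70) and Psmd8 (-0.34). Between TO and WT they were Psmd1 (1.24), Psmd6 (0.97), Psmb5 (0.42), Psmb6 (0.28) and Psme3 (-1.11). Between OT and WT they were Psmd1 (0.56), Psme4 (0.47), Psme3 (-0.63) and Psma5 (-0.41).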

How the results depend on the processing

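Of 528 recomputed counts of calls, 478 stayed within 1.5 times their first value, and of 1652 recomputed values of named genes 1542 kept their call, 108 lost it and 2 reversed. The 2 reversals were Psmd8 and Psmb1 in WT-d against WT-p with loess alone (log2 -0.006 and -0.026). Without Aquantile or with Agilent's processed signals the median of all genes shifted by over 0.1 in some comparisons (0.19 in WT-d against WT-p with processed signals, 0.06 at first). Quantile normalization and the omission of the dim spots ended no named call. The cause of the moves below was not tested.

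Loess alone gave 2 higher in TO-p against OT-p, 1 lower in TO-d against OT-d, 1 lower in TO-d against WT-d, 6 higher in OT-p against WT-p, 3 lower in OT-d against WT-d, 5 lower in TO-d against TO-p, 1 higher in WT-d against WT-p, and 0 lower for the responses of TO against OT and of OT against WT. Without the b samples, which leaves 3 a group, there were 2 higher in TO-p against OT-p, 2 higher and 3 lower in TO-d against OT-d, 5 lower in TO-p against WT-p, 3 lower in TO-d against WT-d, 6 higher and 2 lower in OT-p against WT-p, 0 higher and 6 lower in TO-d against TO-p, 8 higher and 0 lower for the response of TO against OT, and 5 higher for that of OT against WT. With no dye term there were 2 lower in OT-p against WT-p, 0 higher in TO-d against TO-p and 9 higher for the response of TO against OT. With local backgrounds as deposited, added after seeing the data, these 3 were 2, 1 and 11. In TO-d against TO-p the higher calls were 0 with processed signals, 5 with the series table and 5 with quantile normalization. Slide as a block gave 3 lower in OT-d against WT-d and 2 lower for the response of TO against OT, the second brightest probe 3 higher in TO-d against OT-d, and processed signals 4 lower for the response of OT against WT.

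Leaving out 1 sample at a time gave 4 to 4 higher and 16 to 19 lower in TO-p against OT-p, 5 to 7 and 4 to 7 in TO-d against OT-d, 1 to 1 and 6 to 16 in TO-p against WT-p, 14 to 17 and 3 to 7 in TO-d against WT-d, 5 to 11 and 3 to 7 in OT-p against WT-p, 14 to 16 and 3 to 5 in OT-d against WT-d, 0 to 4 and 7 to 13 in TO-d against TO-p (0 without TO-d replicate 1, 1 without TO-p replicate 2 or TO-d replicate 4), 4 to 5 and 26 to 28 in OT-d against OT-p, and 2 to 3 and 29 to 31 in WT-d against WT-p. For the responses it gave 12 to 16 and 1 to 2 for TO against OT (2 without TO-p replicate 3 or 4, TO-d replicate 4, or OT-d replicate 1 or 3), 14 to 22 and 1 to 1 for TO against WT, and 6 to 12 and 2 to 3 for OT against WT. The replicate block, whose numbers were not shown to pair the samples, gave 15 higher for the response of TO against OT. It gave 11 lower in TO-d against TO-p, 13 lower in TO-p against WT-p and 18 lower in TO-p against OT-p. The other counts stayed as they were, and no named call ended. Small changes were the least stable, with Psmb6 in the response of TO against WT losing its call in 15 of 28 alternatives and Psmb1 in WT-d against WT-p in 11 of 20. Signal over background and the 4 samples a group limit what can be seen.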
